A study of Mus musculus with 9 samples.

Results

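The response of RAW 264.7 macrophages to 6 h of lipopolysaccharide (LPS) was described across every gene that reached an expression level of at least 1 FPKM in 3 or more of the 9 libraries of the series, which left 11707 of the 54532 genes in the deposited table. FPKM counts fragments relative to the length of the gene and a total for the library, so levels can be compared between genes. In the deposited values that total was not the plain sum of reads but was adjusted, downwards in LPS and upwards in control libraries. RAW 264.7 is a transformed mouse macrophage line that divides in culture, and the labels give its source as ascites, its cell type as macrophage and its genotype as WT. LPS cells (3 libraries) were grown in medium with 1 µg/ml LPS for 6 h. Control cells (3 libraries) were untreated, and the labels do not say how long they were kept in fresh medium. Another 3 libraries came from cells given the same LPS with 400 µg/ml H-CDs, a nanozyme preparation made from fruit according to the series title. That group entered the expression filter and the shared estimate of the spread and is not compared here. Whether the 3 libraries of each group are separate cultures is not stated, so a p-value reflects the spread among these libraries alone, which may be technical.

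LPS, the outer membrane glycolipid of Gram-negative bacteria, is handed by the co-receptor CD14 to Toll-like receptor 4. One arm of the receptor's signalling, through the adaptor MyD88, activates NF-κB and MAP kinases. The other arm, through the adaptor TRIF, activates IRF3 and the production of type I interferon, which acts back on the cell and induces a second set of genes through factors downstream of the interferon receptor. Macrophages exposed to LPS are also known to change their carbon and lipid metabolism and to leave the cell cycle.

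Recovered whole reads came to between 14377161 and 16069968 per library over the LPS and control groups. Of 12 macrophage markers, 10 passed the filter, and Mertk, which did not, had no read in any LPS or control library. Summed over the 12 markers, the level was 3832 to 4222 FPKM in the LPS libraries and 2860 to 3184 FPKM in the control libraries. Within that sum Cd14 and Adgre1, which encodes F4/80, were higher in LPS cells, and Lyz2 and Csf1r were lower. No marker of T, B or NK cells, neutrophils, mast cells, dendritic cells, fibroblasts, epithelium, endothelium or red cells passed the filter. The summed level of any of those lists was at most 1.31 FPKM in a library. The labelled cell type thus held for 10 of the 12 markers.

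LPS changed a large part of the transcriptome in both directions. In a limma fit on log2(FPKM + 1), with Benjamini-Hochberg adjustment over the 11707 genes, 55.6% of genes passed an adjusted p of 0.05. Of all tested genes, 28.8% (3372 genes) were higher in LPS cells and 26.8% (3136 genes) were lower. The LPS and control libraries did not overlap for 63.9% of genes, 33.2% with LPS higher and 30.7% with LPS lower. A change of at least 2-fold on that scale was called for 844 genes that were higher (7.21%) and 539 that were lower (4.6%). These percentages are the background for every count below. Genes under 1 FPKM in every control library passed the filter only through libraries given LPS, which favoured a higher call. The reverse holds for genes under 1 FPKM in every library given LPS. Counts of classes that hold such genes are therefore not a free comparison with the background. The scale understates the change of genes near 0, and in bulk RNA fewer cells of a kind and less RNA per cell cannot be told apart. The directions of small shifts depend on how libraries are scaled. Rescaled to TPM, where every library has the same sum, 1676 genes were higher and 5657 lower. The median log2 fold change of all genes then moved to -0.299, from 0.03 as deposited. Scaled to the total reads of each library, 1904 genes were higher and 5191 lower. With edgeR on recovered reads, which sets its own scaling, the numbers were 3181 and 3467. Groups whose direction turns under the TPM scaling are named as such.

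The raised and lowered genes differed in level, in opposite order in LPS and control cells. Genes were ranked by their mean over both groups, so a rise lifted a gene's own rank and a fall lowered it. Among the 2927 tested genes with the highest mean FPKM, 10.5% were at least 2-fold higher and 3.14% at least 2-fold lower. Among the 2927 genes with means of 2.95 to 7.64 FPKM, 5.16% were at least 2-fold higher and 6.08% at least 2-fold lower. The median level of the 697 protein-coding genes at least 2-fold higher was 24.9 FPKM in LPS cells and 5.27 FPKM in control cells. For the 494 protein-coding genes at least 2-fold lower it was 3.17 FPKM in LPS cells and 10.3 FPKM in control cells. All tested coding genes had medians of 8.80 FPKM in LPS cells and 8.63 FPKM in control cells. Their median gene lengths were alike, 4002 bases for higher and 3988 for lower genes, against 4371 for all 9787 tested coding genes. The genes called at least 2-fold higher took 22.4 ± 0.542% in LPS cells and 4.37 ± 0.0697% in control cells of the summed FPKM (SD, n = 3 each, here and below), and those called at least 2-fold lower took 1.12 ± 0.009401% in LPS cells and 4.03 ± 0.0954% in control cells. Because these sets were chosen by the same values, the shares describe the size of the response and test nothing.

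**Figure D1:**
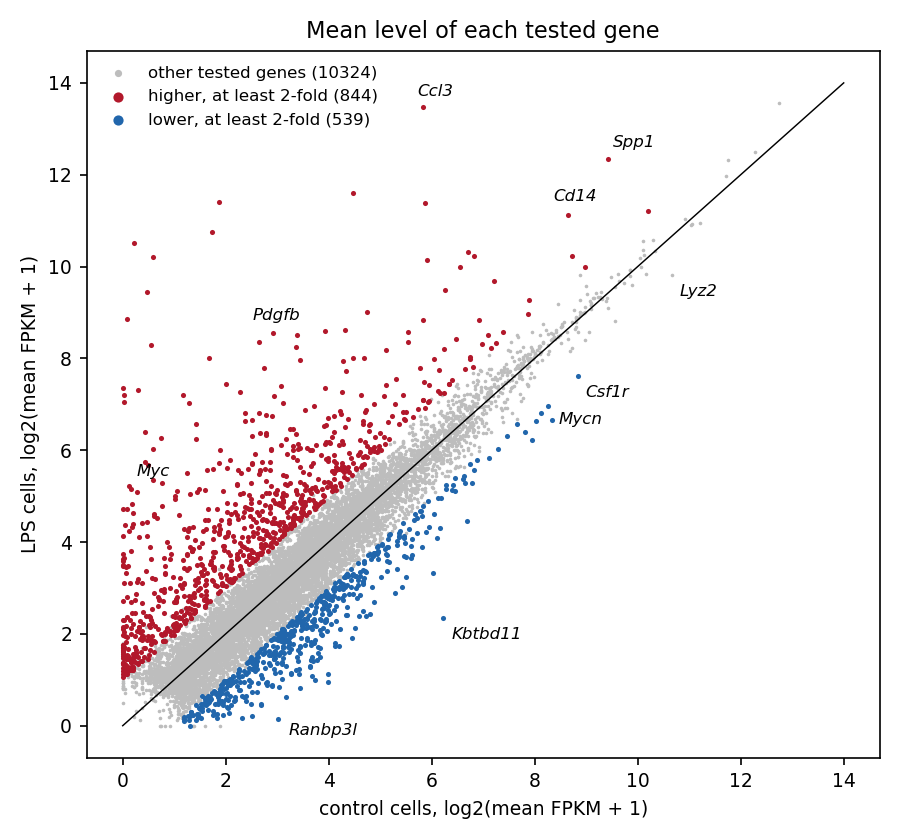
Mean level of each of the 11707 tested genes in LPS cells (vertical) and control cells (horizontal), both as log2(mean FPKM + 1), with 844 genes at least 2-fold higher in red and 539 at least 2-fold lower in blue. The raised genes reach the top of the scale (Ccl3, 11346 FPKM in LPS cells). In control cells the median was 5.27 FPKM for coding genes at least 2-fold higher and 10.3 FPKM for those at least 2-fold lower.

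The greatest gains in mean level were carried by few genes. Ccl3, encoding a chemokine that attracts monocytes, had 11993, 10991 and 11054 FPKM in the LPS libraries, against 53.3, 56.05 and 57.4 FPKM in the control libraries. Spp1, which encodes the secreted matrix protein osteopontin, had 5258, 5220.3 and 5207 FPKM in the LPS libraries, against 649, 673 and 733 FPKM in the control libraries. Cd14, the LPS co-receptor, had 2168, 2151 and 2358 FPKM in the LPS libraries, against 380.02, 402 and 422 FPKM in the control libraries. The groups did not overlap for any of these 3 genes, and their log2 fold changes were 7.65 ± 0.21 (SE), 2.93 ± 0.08 and 2.47 ± 0.08. Fth1, the ferritin heavy chain that stores iron, averaged 5150.3 ± 66.4 FPKM in LPS cells and 3472 ± 317 FPKM in control cells, although reads may be shared with its pseudogenes and the call was lost when no filter on low values was applied (limma adjusted p = 0.544). Pdgfb and Phlda1 closed the list of the 20 coding genes with the highest fold changes under the naming rule. Pdgfb, which encodes the B chain of platelet-derived growth factor, had 368, 379 and 371 FPKM in the LPS libraries, against 6.71, 6.52 and 6.37 FPKM in the control libraries (limma adjusted p = 1.42e-11). Phlda1, a pleckstrin-homology-like domain protein, had 80.2, 71.5 and 75.6 FPKM in the LPS libraries, against 0.597, 0.629 and 0.799 FPKM in the control libraries (limma adjusted p = 2.33e-11). Both genes were low in every control library and high in every LPS library. Lif, the leukaemia inhibitory factor of the interleukin-6 family, averaged 163 ± 16.3 FPKM in LPS cells and 0.00458 ± 0.00794 FPKM in control cells.

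Gene classes tied to interferon by their descriptions were mostly higher. Of the Schlafen and guanylate-binding proteins, which restrict growth and intracellular pathogens, 13 were higher and 0 lower of 13 tested, with a median log2 fold change of 1.94 against 0.03 for all tested genes. Slfn4 had 319, 311 and 282 FPKM in the LPS libraries, against 9.18, 9.18 and 9.41 FPKM in the control libraries. Slfn2 had 384, 375 and 402 FPKM in the LPS libraries, against 13.4, 12.8 and 16.2 FPKM in the control libraries. Slfn5 averaged 34.4 ± 0.891 FPKM in LPS cells and 1.79 ± 0.1297 FPKM in control cells. The libraries of the groups did not overlap for these 3 Schlafen genes, which are close relatives and may share reads. Gbp2, Gbp2b, Gbp3, Gbp5, Gbp7 and Gbp9, all the guanylate-binding genes tested, were at or below 0.1705 FPKM in every control library. These genes passed the filter only through libraries given LPS, so the filter itself favoured a higher call for them. The count for the whole class is therefore not a free comparison with the background. Gbp5 had 1.79, 2.39 and 1.98 FPKM in the LPS libraries, against 0 FPKM in the control libraries, and Gbp3 had 9.38, 8.77 and 9.03 FPKM in the LPS libraries, against 0.0366, 0.05097 and 0.0523 FPKM in the control libraries. Among genes with interferon in the description, 29 were higher and 6 lower of 43 tested, and 24 of the raised ones were at least 2-fold higher. One cluster of them, the Ifi200 family of DNA-binding proteins, held Ifi202b with 67.9, 64.05 and 61.2 FPKM in the LPS libraries, against 0.564, 0.556 and 0.369 FPKM in the control libraries. Ifi204 averaged 18.4 ± 0.994 FPKM in LPS cells and 1.28 ± 0.113 FPKM in control cells. Within that description class 6 genes fell, and 1 of them was at least 2-fold lower.

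Other families of antiviral or nuclear-body proteins held raised genes. Of the poly(ADP-ribose) polymerases, 6 were higher and 4 lower of 11 tested, and 2 were lower without control replicate 2 or 3. Parp14, a mono-ADP-ribosyltransferase, had 57.2, 55.8 and 49.8 FPKM in the LPS libraries, against 3.37, 3.43 and 2.83 FPKM in the control libraries, with no overlap of the groups. Parp12 averaged 70.4 ± 3.65 FPKM in LPS cells and 15.4 ± 0.658 FPKM in control cells, and Parp10 averaged 32.6 ± 0.991 FPKM in LPS cells and 6.77 ± 1.04 FPKM in control cells. Parp1, the DNA damage sensor of the family, went the other way, with 42.4, 41.7 and 42.8 FPKM in the LPS libraries, against 76.98, 82.2 and 76.8 FPKM in the control libraries (log2 fold change -0.88 ± 0.07). Of the tripartite motif proteins, many of them ubiquitin ligases, 15 were higher and 11 lower of 30 tested, and rescaled to TPM the balance turned to 10 higher and 14 lower. Without LPS replicate 3, 7 were lower. Trim30a averaged 31.9 ± 3.54 FPKM in LPS cells and 1.47 ± 0.104 FPKM in control cells. Trim25, which ubiquitinates the RNA sensor RIG-I, averaged 146 ± 5.798 FPKM in LPS cells and 42.4 ± 4.79 FPKM in control cells, and Trim37, a ubiquitin ligase, averaged 6.92 ± 0.222 FPKM in LPS cells and 14.4 ± 0.4796 FPKM in control cells. The SAND domain family of nuclear-body proteins had 6 of 7 tested members higher and none lower, among them Sp140 (17.8 against 1.95 FPKM in LPS against control cells) and Sp100 (17.8 against 2.39 FPKM).

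Surface receptors changed in both directions. In a list of chemoattractant and other G protein-coupled receptors, 15 were higher and 6 lower of 24 tested, 11 of the raised and 4 of the lowered ones by at least 2-fold. C5ar1, the receptor for complement fragment C5a, had 126, 129.9 and 132 FPKM in the LPS libraries, against 6.52, 8.61 and 7.94 FPKM in the control libraries. C3ar1, the receptor for C3a, averaged 17.98 ± 1.17 FPKM in LPS cells and 1.41 ± 0.168 FPKM in control cells. Ccrl2, a chemerin-binding receptor, had 24.2, 24.6 and 22.5 FPKM in the LPS libraries, against 0.02303, 0.214 and 0.219 FPKM in the control libraries. All 3 were low in each control library and the groups did not overlap. Hcar2, the receptor for hydroxybutyrate and niacin, averaged 21.9 ± 1.38 FPKM in LPS cells and 0.582 ± 0.174 FPKM in control cells. Ccrl2 and Hcar2 passed the filter only through libraries given LPS, which favoured a higher call. The count for this list is therefore not a free comparison with the background. Gpr84, a receptor for medium-chain fatty acids, averaged 101 ± 3.07 FPKM in LPS cells and 19.7 ± 0.868 FPKM in control cells, and Adora2b, an adenosine receptor, averaged 24.04 ± 2.22 FPKM in LPS cells and 4.15 ± 1.15 FPKM in control cells. Lowered receptors included Lpar5, Gpr183 and Cx3cr1. Lpar5, a receptor for lysophosphatidic acid, had 2.92, 2.28 and 2.33 FPKM in the LPS libraries, against 16.2, 18.1 and 14.9 FPKM in the control libraries. Gpr183, the receptor for oxysterols that guides cell migration, had 8.72, 9.05 and 7.605 FPKM in the LPS libraries, against 30.1, 32.3 and 31.1 FPKM in the control libraries. Cx3cr1, the fractalkine receptor, had 31.7, 29.4 and 28.8 FPKM in the LPS libraries, against 72.3, 71.5 and 72.1 FPKM in the control libraries. In each of these 3 genes every LPS library lay below every control library. S1pr2, a sphingosine-1-phosphate receptor, averaged 1.65 ± 0.1195 FPKM in LPS cells and 5.12 ± 0.199 FPKM in control cells.

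Signal transducers downstream of such receptors also divided. Of the regulators of G protein signalling, 9 were higher and 14 lower of 30 tested. Rgs16, a GTPase activator that shortens Gα signalling, had 72.1, 77.2 and 73.6 FPKM in the LPS libraries, against 1.66, 1.83 and 1.51 FPKM in the control libraries. Rgs14, of the same family, averaged 2.14 ± 0.109 FPKM in LPS cells and 9.63 ± 0.292 FPKM in control cells, and Arrb1, encoding β-arrestin 1, averaged 7.15 ± 0.951 FPKM in LPS cells and 20.7 ± 2.21 FPKM in control cells. Pde4b, a cyclic AMP phosphodiesterase, averaged 8.14 ± 0.296 FPKM in LPS cells and 0.547 ± 0.0932 FPKM in control cells. Of the phosphoinositide and diacylglycerol enzymes and adaptors, 16 were higher and 13 lower of 40 tested (10 higher and 20 lower when rescaled to TPM). Pik3ap1, an adaptor for phosphoinositide 3-kinase, averaged 127 ± 3.81 FPKM in LPS cells and 28.6 ± 4.74 FPKM in control cells, while Pip4k2a, a phosphatidylinositol-5-phosphate kinase, averaged 15.7 ± 0.545 FPKM in LPS cells and 48.4 ± 2.27 FPKM in control cells. Among exchange factors that switch small GTPases on, Arhgef3 averaged 18.7 ± 1.05 FPKM in LPS cells and 1.46 ± 0.156 FPKM in control cells, whereas Plekhg5 had 0.606, 0.432 and 0.592 FPKM in the LPS libraries, against 7.65, 8.603 and 7.705 FPKM in the control libraries. Arhgap45, a GTPase activating protein that switches them off, averaged 16.05 ± 0.0874 FPKM in LPS cells and 68.02 ± 4.86 FPKM in control cells, and Abr, which carries both activities, averaged 81.8 ± 5.001 FPKM in LPS cells and 31.04 ± 1.98 FPKM in control cells. Rasa3, an activator of Ras and Rap GTP hydrolysis, averaged 3.35 ± 0.154 FPKM in LPS cells and 21.7 ± 1.19 FPKM in control cells.

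Phosphatases and RNA-binding proteins that curb inflammatory signalling were among the raised genes. The dual specificity phosphatases, a class of which only some remove phosphate from MAP kinases, had 7 higher and 6 lower of 17 tested. Dusp5 had 97.1, 95.7 and 90.1 FPKM in the LPS libraries, against 1.31, 2.09 and 1.66 FPKM in the control libraries. Dusp2 averaged 107 ± 5.33 FPKM in LPS cells and 6.49 ± 0.399 FPKM in control cells, and Dusp4 averaged 48.6 ± 2.18 FPKM in LPS cells and 9.86 ± 1.83 FPKM in control cells. Of the genes described as protein tyrosine phosphatases, 13 were higher and 7 lower of 25 tested (8 higher and 10 lower rescaled to TPM). Ptprj, a receptor phosphatase known as CD148, averaged 68.9 ± 4.18 FPKM in LPS cells and 14.3 ± 1.68 FPKM in control cells, and Ptpn12 averaged 48.4 ± 3.802 FPKM in LPS cells and 16.6 ± 0.886 FPKM in control cells. On the lowered side Ppfia4, a liprin described with this class, averaged 0.813 ± 0.0533 FPKM in LPS cells and 6.41 ± 0.2904 FPKM in control cells, and Ptpn18 averaged 1.25 ± 0.129 FPKM in LPS cells and 4.42 ± 0.366 FPKM in control cells. Of 386 tested genes described as zinc finger proteins, 120 were higher and 89 lower, and 43 and 166 when rescaled to TPM. Zfp36, which encodes tristetraprolin, a protein that destabilizes AU-rich messages, had 249.8, 248 and 243 FPKM in the LPS libraries, against 10.2, 9.21 and 10.3 FPKM in the control libraries. Zc3h12a, encoding the ribonuclease regnase-1, averaged 82.5 ± 0.889 FPKM in LPS cells and 5.89 ± 0.1496 FPKM in control cells. Zfp36l2, a relative of Zfp36 that also binds AU-rich elements, fell in LPS cells, with 9.13, 9.64 and 10.2 FPKM in the LPS libraries, against 40.7, 38.5 and 37.5 FPKM in the control libraries. Tristetraprolin's gene and its relative therefore had opposite signs, 4.51 and -1.91 on the log2 scale. Zfpm1, a GATA cofactor, averaged 2.55 ± 0.2102 FPKM in LPS cells and 11.7 ± 0.391 FPKM in control cells, and Zfp811, a zinc finger protein gene, averaged 19.6 ± 1.17 FPKM in LPS cells and 0.0381 ± 0.0414 FPKM in control cells.

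Membrane transporters changed in nearly equal numbers each way. Of 172 tested solute carriers, 55 were higher and 61 lower, 12 and 14 of them by at least 2-fold, and 23 and 98 when rescaled to TPM. Slc15a3, a lysosomal carrier of peptides and bacterial muropeptides, had 105, 109.7 and 107 FPKM in the LPS libraries, against 5.69, 5.59 and 6.23 FPKM in the control libraries. Slc31a2 (a copper carrier), Slc11a2 (DMT1, an importer of divalent metals such as iron) and Slc7a11 (the cystine importer) averaged 22.8 against 4.58, 29.4 against 7.601 and 17.3 against 3.15 FPKM in LPS against control cells. Slc2a1, the glucose transporter GLUT1, averaged 259 ± 12.5 FPKM in LPS cells and 106 ± 4.47 FPKM in control cells. Slc43a2, a carrier of large neutral amino acids, had 1.13, 1.31 and 0.934 FPKM in the LPS libraries, against 12.1, 12.6 and 10.9 FPKM in the control libraries. Slc5a3, the sodium and myo-inositol cotransporter, had 4.66, 4.204 and 3.902 FPKM in the LPS libraries, against 30.01, 24.6 and 21.8 FPKM in the control libraries. Slc6a12, which takes up betaine and GABA, averaged 37.9 ± 1.13 FPKM in LPS cells and 109 ± 6.78 FPKM in control cells, and Slc25a10, the mitochondrial dicarboxylate carrier, averaged 8.02 ± 0.562 FPKM in LPS cells and 22.8 ± 2.14 FPKM in control cells. The groups did not overlap for Slc15a3, Slc43a2 or Slc5a3. In nucleotide synthesis and one-carbon metabolism, 11 were higher and 22 lower of 47 tested. Tk1, the thymidine kinase of dividing cells, had 7.13, 7.31 and 6.85 FPKM in the LPS libraries, against 39.5, 41.7 and 43.7 FPKM in the control libraries. Dut, which removes dUTP, averaged 16.1 ± 0.927 FPKM in LPS cells and 43.1 ± 3.05 FPKM in control cells, and Rrm2, a subunit of ribonucleotide reductase, averaged 37.1 ± 0.7603 FPKM in LPS cells and 76.5 ± 2.63 FPKM in control cells. Cmpk2, a mitochondrial nucleotide kinase known as an interferon-induced gene, averaged 30.9 ± 1.301 FPKM in LPS cells and 1.02 ± 0.174 FPKM in control cells, and Upp1, uridine phosphorylase, had 12.03, 13.1 and 13.8 FPKM in the LPS libraries, against 0.06101, 0.226 and 0.057997 FPKM in the control libraries.

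The lowest fold changes by the naming rule were spread over unrelated functions. Kbtbd11, a kelch and BTB domain protein, had 4.31, 4.19 and 3.65 FPKM in the LPS libraries, against 74.7, 77.8 and 69.3 FPKM in the control libraries (log2 fold change -3.89 ± 0.07, limma adjusted p = 2.55e-10). Ranbp3l, a Ran-binding protein, had 0.1202, 0.0752 and 0.126 FPKM in the LPS libraries, against 7.23, 6.69 and 7.37 FPKM in the control libraries (limma adjusted p = 2.81e-08), from 11, 7 and 13 reads with LPS and 829, 827 and 889 without it. Cldn11, a claudin of tight junctions, had 8.81, 9.77 and 8.68 FPKM in the LPS libraries, against 56.2, 68.2 and 67.3 FPKM in the control libraries (limma adjusted p = 2.14e-08). In all 3 genes each LPS library lay far below each control library. Susd3, a sushi domain protein, averaged 0.924 ± 0.222 FPKM in LPS cells and 14.9 ± 1.31 FPKM in control cells. Ptgs1, the constitutive cyclooxygenase, averaged 1.17 ± 0.112 FPKM in LPS cells and 14.9 ± 0.918 FPKM in control cells. Shtn1, shootin 1 of axon growth, averaged 2.73 ± 0.3299 FPKM in LPS cells and 20.9 ± 1.16 FPKM in control cells. Trem2, a lipid-sensing receptor of tissue macrophages and microglia, had 3.68, 4.29 and 5.18 FPKM in the LPS libraries, against 24.5, 28.6 and 27.9 FPKM in the control libraries. That is 6.16-fold lower in LPS cells by the ratio of mean FPKM (log2 fold change -2.39 ± 0.105), and the groups did not overlap. Over the kelch, BTB and cullin adaptors of ubiquitin ligases, 18 were higher and 15 lower of 49 tested, and the balance turned to 5 higher and 26 lower when rescaled to TPM.

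**Figure D2:**
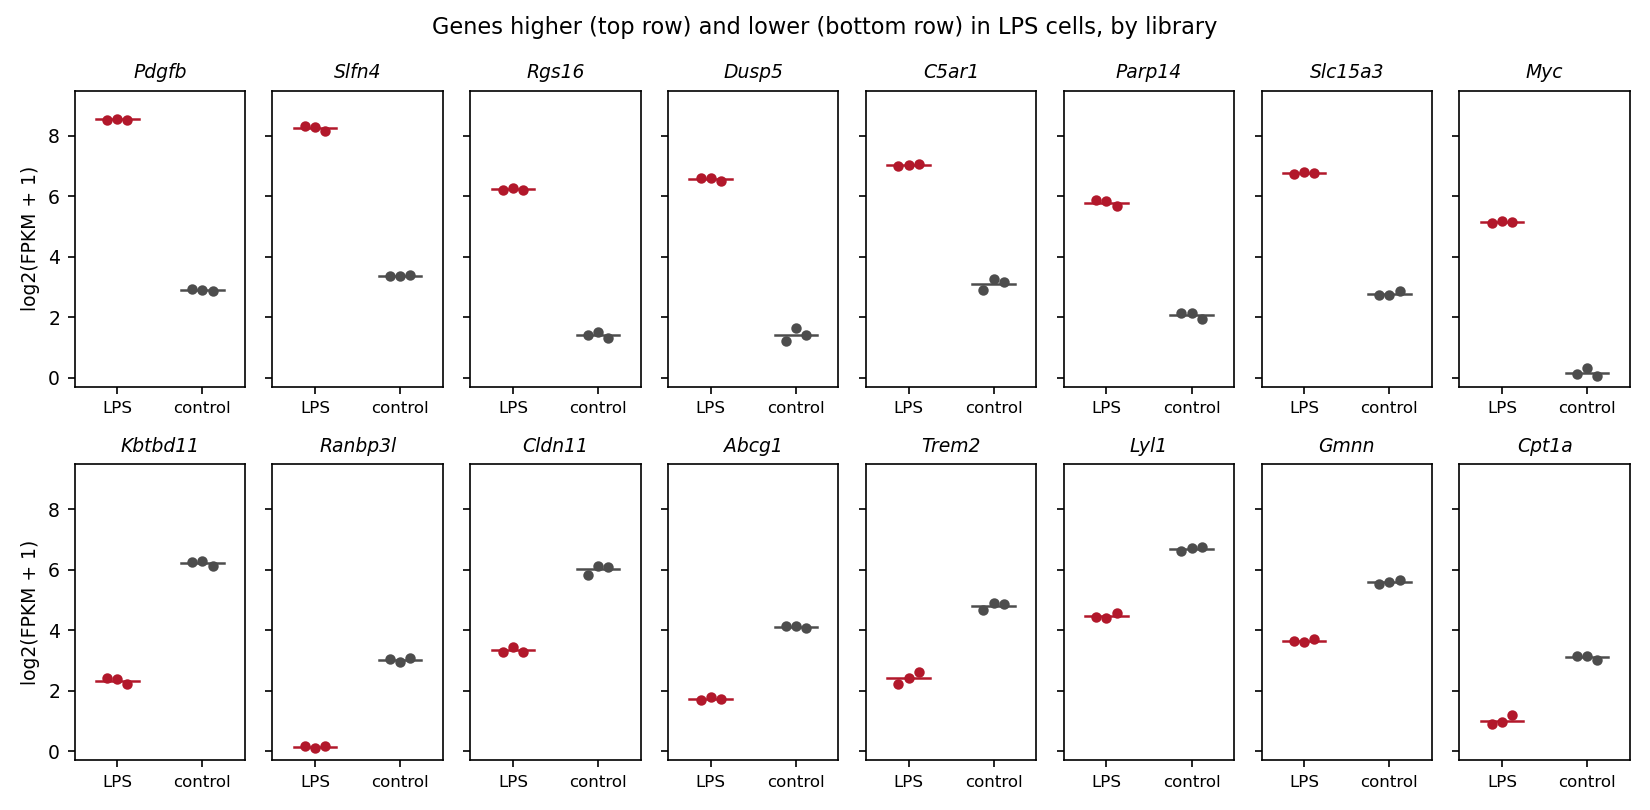
Level of 8 raised genes (top row) and 8 lowered genes (bottom row) as log2(FPKM + 1), with the 3 LPS libraries left of the 3 control libraries; each point is a library and each bar the mean. No LPS library overlaps a control library for any of the 16 genes.

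The greatest losses in mean level fell on genes that are abundant in macrophages. Lyz2, lysozyme, had 866, 833 and 992 FPKM in the LPS libraries, against 1494, 1704 and 1674 FPKM in the control libraries. Csf1r, the receptor for macrophage colony-stimulating factor, had 196, 192 and 197 FPKM in the LPS libraries, against 442, 473 and 451 FPKM in the control libraries. Cst3, the cathepsin inhibitor cystatin C, had 426, 428 and 503 FPKM in the LPS libraries, against 637, 829.6 and 794 FPKM in the control libraries. No LPS library reached the lowest control library for these 3 genes, whose means were 1.81, 2.34 and 1.67-fold lower in LPS cells. Scd2, a stearoyl-CoA desaturase, averaged 100.5 ± 3.78 FPKM in LPS cells and 324 ± 20.1 FPKM in control cells. Pkm, pyruvate kinase of glycolysis, averaged 1976 ± 81.4 FPKM in LPS cells and 2352 ± 177 FPKM in control cells. Ptma, prothymosin α, averaged 919 ± 103 FPKM in LPS cells and 1144 ± 35.8 FPKM in control cells. These calls of Pkm and Ptma were lost when single libraries were left out, for Pkm without LPS replicate 1, 2 or 3 or control replicate 2 or 3 (limma adjusted p 0.0789 to 0.152) and for Ptma without LPS replicate 1 or 2 or any control replicate (0.0575 to 0.146). Ifi30, the lysosomal thiol reductase of antigen processing that the deposited table lists as a processed transcript, averaged 73.6 ± 2.73 FPKM in LPS cells and 247 ± 31.3 FPKM in control cells.

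Lipid handling was lowered in more members than it was raised. Of 48 tested genes of fatty acid oxidation and the peroxisome, 7 were higher and 23 lower, 6 of the lowered and none of the raised ones by at least 2-fold. The number raised was 4 without LPS replicate 1 or 2 and 3 without control replicate 3. Cpt1a, which carries long-chain fatty acids into the mitochondrion and limits their oxidation, had 0.854, 0.942 and 1.27 FPKM in the LPS libraries, against 7.805, 7.84 and 7.08 FPKM in the control libraries. Hadh, Acaa1a and Acads, enzymes of the β-oxidation spiral, averaged 2.97 against 8.18, 24.7 against 53.8 and 10.1 against 21.1 FPKM in LPS against control cells. The groups did not overlap for Cpt1a, with a log2 fold change of -2.09 ± 0.11. Of the ATP-binding cassette transporters, 5 were higher and 11 lower of 20 tested. Abcg1, which exports cholesterol to high-density lipoprotein, had 2.21, 2.46 and 2.31 FPKM in the LPS libraries, against 16.5, 16.6 and 15.9 FPKM in the control libraries. Abcc1, an exporter of glutathione conjugates and leukotriene C4, averaged 27.4 ± 1.17 FPKM in LPS cells and 13.7 ± 1.59 FPKM in control cells. Of the sphingolipid genes, 10 were higher and 16 lower of 35 tested. Cerk, ceramide kinase, averaged 1.91 ± 0.432 FPKM in LPS cells and 7.18 ± 0.766 FPKM in control cells, and Gm2a, the activator protein for ganglioside breakdown, averaged 5.501 ± 0.213 FPKM in LPS cells and 13.99 ± 0.594 FPKM in control cells. Degs1 and Cers6, enzymes that make ceramide, averaged 71.4 against 25.1 and 27.9 against 12.3 FPKM, and both were higher.

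Genes of DNA replication were lower in nearly every case. Of 50 replication origin and fork proteins, 2 were higher and 46 lower, 15 of the lowered ones by at least 2-fold, with a median log2 fold change of -0.81. Gmnn, encoding geminin, the inhibitor of origin licensing, had 11.4, 11.3 and 12.1 FPKM in the LPS libraries, against 45.4, 47.8 and 49.4 FPKM in the control libraries. Cdc6, which loads the helicase at origins, had 4.61, 4.32 and 4.36 FPKM in the LPS libraries, against 15.2, 15.01 and 14.7 FPKM in the control libraries. Wdhd1, a fork scaffold, averaged 2.28 ± 0.237 FPKM in LPS cells and 9.88 ± 0.376 FPKM in control cells, and Lig1, which joins Okazaki fragments, averaged 16.1 ± 0.507 FPKM in LPS cells and 40.4 ± 1.27 FPKM in control cells. Every LPS library lay below every control library for Gmnn and Cdc6. All 6 subunits of the MCM helicase were lower, with log2 fold changes of -1.18 for Mcm7, -1.05 for Mcm5, -0.98 for Mcm6, -0.93 for Mcm2, -0.76 for Mcm4 and -0.26 for Mcm3. The 2 raised members were Orc1 (0.36 ± 0.07) and Orc3 (0.29 ± 0.11), subunits of the origin recognition complex. Neither held under every setting: Orc1 was at 0.05 (limma adjusted p = 0.649) when rescaled to TPM, and Orc3 was at -0.03 (limma adjusted p = 0.825), with the call of Orc3 also lost without LPS replicate 1 or 2 or any 1 control replicate (limma adjusted p 0.0524 to 0.15). Uhrf1 and Dnmt1, which copy DNA methylation behind the fork, averaged 34.3 against 83.1 and 42.5 against 98.4 FPKM in LPS against control cells.

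DNA repair genes followed the same direction. Of 72 tested, 3 were higher and 46 lower, 8 of the lowered ones by at least 2-fold. Ung, the uracil DNA glycosylase, had 1.32, 1.31 and 1.36 FPKM in the LPS libraries, against 8.96, 9.84 and 9.26 FPKM in the control libraries. Chek2, a checkpoint kinase, averaged 2.59 ± 0.165 FPKM in LPS cells and 8.08 ± 0.419 FPKM in control cells. The most raised member was Ercc1, a subunit of an excision repair nuclease, with 18.2, 17.5 and 17.04 FPKM in the LPS libraries, against 2.81, 3.24 and 3.31 FPKM in the control libraries. The groups did not overlap for Ung or Ercc1, which moved in opposite directions (-2.15 ± 0.11 and 2.18 ± 0.07). Mitotic genes were lower in most cases. Of 61 kinetochore, spindle and cytokinesis genes, 6 were higher and 45 lower, 2 of the lowered ones by at least 2-fold (3 were higher without LPS replicate 1), with a median log2 fold change of -0.43. Cenph and Cenpm, of the inner kinetochore, averaged 3.97 against 10.5 and 6.18 against 14.96 FPKM in LPS against control cells, and Birc5 and Aurkb, of the chromosomal passenger complex, 11.4 against 23.1 and 25.6 against 48.2 FPKM. Zwint and Cenpc1, also of the kinetochore, were higher, with 33.01 against 17.9 and 12.9 against 7.12 FPKM. Ccnb1, the mitotic cyclin B1, averaged 47.3 ± 1.96 FPKM in LPS cells and 46.8 ± 1.07 FPKM in control cells and did not pass (limma adjusted p = 0.868).

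Several smaller classes were lowered more often than raised. Of the kinesins, 5 were higher and 19 lower of 31 tested, and the lowest were not the mitotic ones but Kifc3 (1.81 against 11.8 FPKM in LPS against control cells), a minus-end motor, and Klc4 (2.29 against 12.8 FPKM), a light chain. Of the histone genes, 1 was higher and 9 lower of 12 tested. H1f0, the linker histone H1.0, averaged 38.2 ± 2.18 FPKM in LPS cells and 99.6 ± 6.21 FPKM in control cells, whereas H3f3b, which encodes the replication-independent histone H3.3, averaged 321 ± 18.4 FPKM in LPS cells and 150.3 ± 9.396 FPKM in control cells. Of the semaphorins and plexins, guidance ligands and their receptors, 2 were higher and 8 lower of 11 tested (1 higher without LPS replicate 1, 2 or 3 or control replicate 2 or 3). Plxnd1 had 6.89, 6.73 and 5.51 FPKM in the LPS libraries, against 37.5, 41.9 and 34.8 FPKM in the control libraries, with no overlap of the groups. Of the sulfo- and glycosyltransferases, 11 were higher and 19 lower of 40 tested. Among enzymes that add sialic acid, St3gal1 had 38.7, 38.6 and 33.2 FPKM in the LPS libraries, against 3.79, 3.74 and 3.35 FPKM in the control libraries, whereas St8sia4, which makes polysialic acid, averaged 1.25 ± 0.2004 FPKM in LPS cells and 7.27 ± 0.883 FPKM in control cells. The sulfotransferases Chst1 and Chst12 averaged 1.17 against 9.795 and 3.88 against 16.6 FPKM in LPS against control cells, and both were lower. Of the mitochondrial ribosomal proteins, 6 were higher and 25 lower of 76 tested. Mrps6 averaged 14.7 ± 0.797 FPKM in LPS cells and 43.5 ± 5.05 FPKM in control cells, and Mrpl52, an exception, averaged 92.6 ± 10.7 FPKM in LPS cells and 26.7 ± 2.52 FPKM in control cells.

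Some housekeeping classes had no direction that held under both scalings. The genes described with the proteasome, which include assembly chaperones as well as subunits, had 28 higher and 4 lower of 46 tested as deposited. Rescaled to TPM they had 10 higher and 13 lower. The 4 lower as deposited were Psmg1 and Psmg2, both assembly chaperones, Psmd5 and Psmc3ip (2 lower without control replicate 2 or 3). Psma6, a subunit of the core, averaged 364 ± 8.19 FPKM in LPS cells and 135 ± 6.29 FPKM in control cells, and Psme2, of the interferon-inducible activator PA28, averaged 47.4 ± 9.82 FPKM in LPS cells and 19.5 ± 3.12 FPKM in control cells. The class described as cytosolic ribosomal proteins had 13 higher and 1 lower of 92, and 0 higher and 24 lower rescaled. It was taken by description, and its higher members included the S6 kinase genes Rps6kb1 and Rps6kb2, which are not ribosomal proteins. With single libraries left out, 6 to 20 of them were higher (6 without LPS replicate 3, 8 without LPS replicate 2, 8 without control replicate 1, 7 without control replicate 2 and 20 without control replicate 3). The ribonucleoproteins and splicing factors had 18 higher and 5 lower of 54, and 1 higher and 24 lower rescaled. The directions of the Schlafen, replication, repair and kinetochore groups held under both, with 12 higher and 0 lower for the Schlafen and guanylate-binding class, 0 higher and 47 lower for replication, 1 higher and 61 lower for repair and 2 higher and 53 lower for the kinetochore list under TPM.

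**Figure D3:**
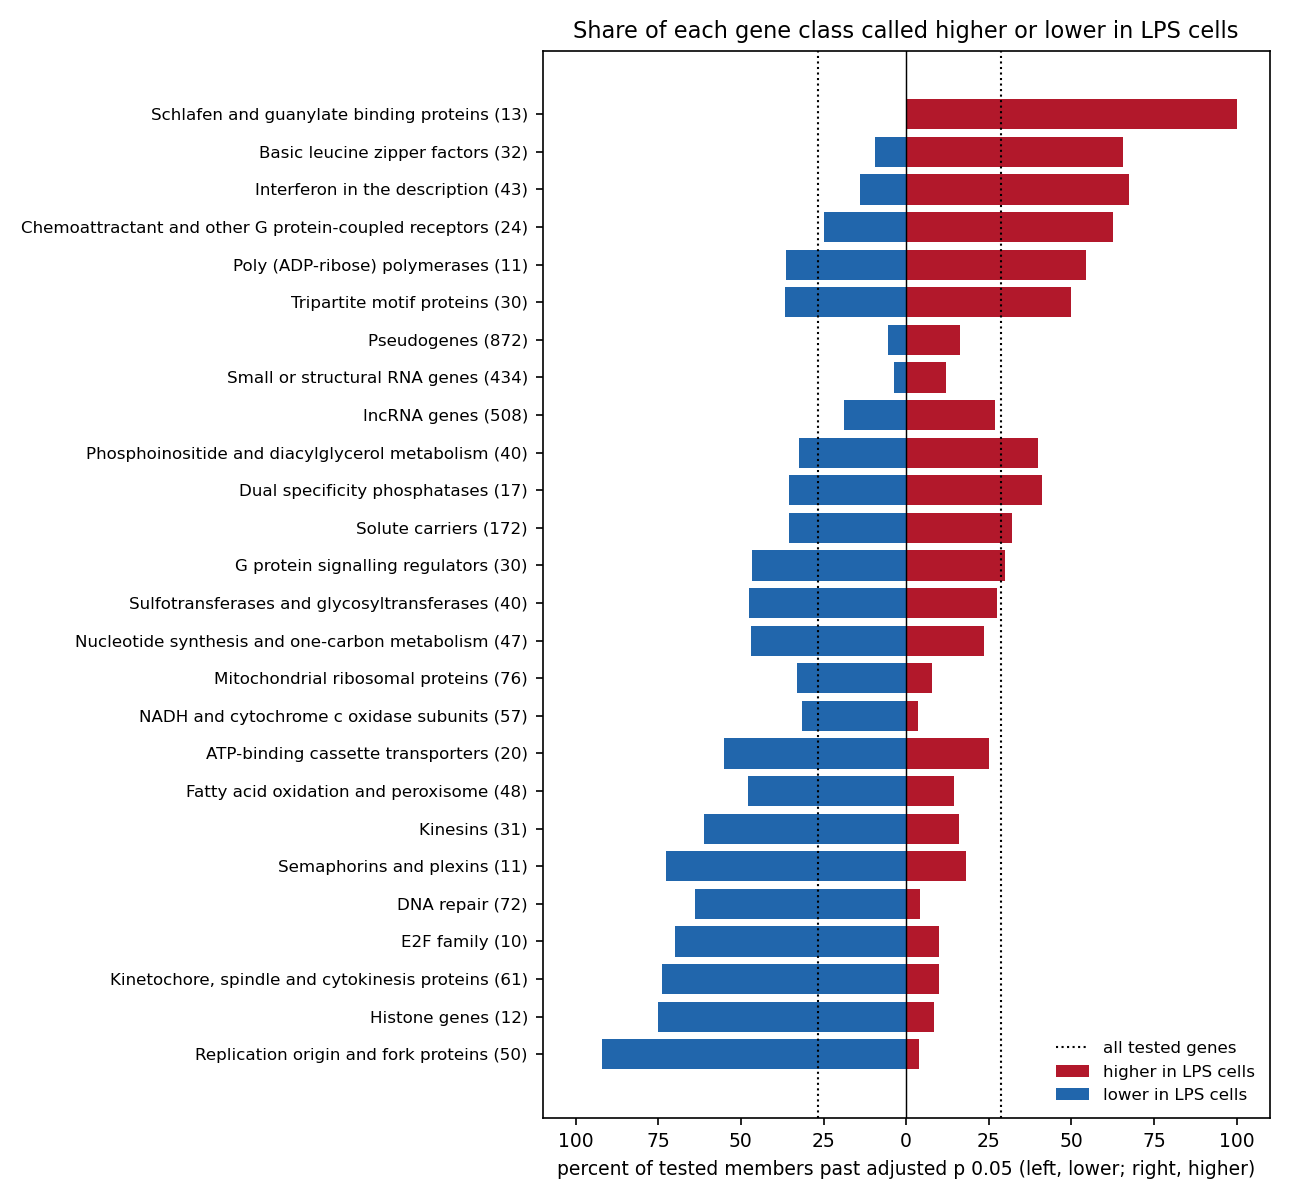
Percent of the tested members of 26 gene classes that passed adjusted p 0.05 as higher (right, red) or lower (left, blue) in LPS cells, with the number tested in brackets and dotted lines at 28.8% and 26.8%, the shares of all tested genes. The Schlafen and guanylate-binding class stands at the top with 100% higher and the replication list at the bottom with 92% lower. The guanylate-binding genes passed the filter only through libraries given LPS, which favoured a higher call.

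The deposited table assigns genes to families of transcription factors. Over all families 225 of 652 tested genes were higher and 160 lower, and 116 and 297 when rescaled to TPM. The basic leucine zipper family stood on the raised side under both scalings, with 21 higher and 3 lower of 32 tested as deposited and 17 higher and 8 lower rescaled. Junb, a component of AP-1, had 434, 451 and 485 FPKM in the LPS libraries, against 51.7, 56.05 and 60.1 FPKM in the control libraries. Atf3, a stress-induced repressor, averaged 79.4 ± 12.1 FPKM in LPS cells and 5.89 ± 0.739 FPKM in control cells, and Atf4, which directs amino acid metabolism under stress, averaged 252 ± 3.68 FPKM in LPS cells and 106 ± 5.92 FPKM in control cells. The E2F family, which drives genes of DNA synthesis, stood on the lowered side, with 1 higher and 7 lower of 10 tested. E2f2 had 1.81, 1.72 and 1.51 FPKM in the LPS libraries, against 11.2, 11.7 and 12.02 FPKM in the control libraries. E2f8 and E2f7, the family's repressors, averaged 3.61 against 15.6 and 0.624 against 3.01 FPKM in LPS against control cells. The basic helix-loop-helix family held 13 higher and 15 lower of 33 tested, and it included opposite changes of a pair of close relatives. Myc, a driver of growth and biosynthesis, had 33.9, 34.9 and 34.6 FPKM in the LPS libraries, against 0.0881, 0.245 and 0.0419 FPKM in the control libraries. Mycn, the related N-Myc gene, had 115, 125 and 131 FPKM in the LPS libraries, against 294, 319 and 302 FPKM in the control libraries. The groups did not overlap for either gene, with log2 fold changes of 4.98 ± 0.09 for Myc and -1.297 ± 0.07 for Mycn, and Mycn stayed above Myc in FPKM in every LPS library. In the same family Lyl1, a haematopoietic factor, had 20.6, 20.004 and 22.6 FPKM in the LPS libraries, against 97.1, 103 and 106 FPKM in the control libraries, and Tfeb, a driver of lysosome genes, had 0.304, 0.468 and 0.387 FPKM in the LPS libraries, against 4.19995, 4.99 and 4.58 FPKM in the control libraries. Other lowered factors were Nfatc1 (7.42 against 22.8 FPKM), Mef2c (7.04 against 16.5 FPKM) and Smad3 (1.61 against 5.62 FPKM), which carries TGF-β signals. Other raised factors were Cebpd (37.95 against 4.61 FPKM), Irf8 (58.2 against 13.4 FPKM) and Ets2 (93.4 against 24.3 FPKM).

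Long non-coding RNA (lncRNA) genes, with those listed as processed transcripts such as Ifi30 counted among them, made up 508 of the tested genes. Of these 136 were higher and 96 lower, 47 and 17 of them by at least 2-fold, and 81 and 155 when rescaled to TPM. The highest fold change belonged to Mir155hg, the primary transcript of miR-155, a microRNA known to be induced by NF-κB and to repress inhibitors of inflammatory signalling. Mir155hg (GRCm38, chr16:84703167-84715245, forward strand, lincRNA) had 55.1, 45.7 and 49.3 FPKM in the LPS libraries, against 0.417, 0.348 and 0.437 FPKM in the control libraries (log2 fold change 5.18 ± 0.103, limma adjusted p = 3.82e-10). Each LPS library had at least 890 reads on it, against at most 11 in a control library. Mir221 (GRCm38, chrX:19146294-19146388, reverse strand) was the most raised locus annotated as a microRNA, with 14.98, 17.1 and 17.5 FPKM in the LPS libraries, against 0, 0.584 and 0.599 FPKM in the control libraries, from 19, 22 and 25 reads with LPS and 0, 1 and 1 without it. Mature products of both loci, without miR-221-5p, are shown because their host RNAs were raised. The list adds miR-222-3p, from the neighbouring Mir222 locus, for its seed. RefSeq (GRCm38.p6) gives them as follows, 5′ to 3′, with the seed, bases 2 to 8, in capitals.
mmu-miR-155-5p: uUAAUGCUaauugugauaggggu
mmu-miR-155-3p: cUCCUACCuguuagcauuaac
mmu-miR-221-3p: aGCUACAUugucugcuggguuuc
mmu-miR-222-3p: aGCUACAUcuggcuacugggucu
The miR-221-3p and miR-222-3p seeds are the same, GCUACAU. Both are encoded side by side on chromosome X, and the Mir222 locus, with 0.948, 1.86 and 7.58 FPKM in the LPS libraries, against 0.757, 0 and 0 FPKM in the control libraries, did not pass the test (limma adjusted p = 0.0728). Libraries of poly(A) RNA cut to long fragments do not measure mature microRNAs, so these reads count the host RNAs only.

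Most raised antisense genes lay across a raised coding gene. The balance of antisense genes turned with the scaling: 57 were higher and 29 lower of 208 tested as deposited, and 37 higher and 48 lower rescaled to TPM. Of the 57 that were higher as deposited, 45 overlapped a protein-coding gene that was also higher, 1 overlapped a lower one, 8 overlapped one that did not pass and 3 overlapped none. Of all tested coding genes 30.8% were higher and 30.1% lower. Partners were not counted for antisense genes that did not pass, some of which also overlapped a raised gene. The share over all 208 is therefore not given. Of the 29 that were lower, 11 overlapped a lower coding gene, 2 a higher one, 9 one that did not pass, 3 one that was not tested and 4 none. Gm28913 and Gm28914 overlap Ikbke, the kinase IKKε, and had log2 fold changes of 3.93 and 2.28 beside 3.33 for Ikbke. Gm41361 overlaps Pdgfb, Gm20234 overlaps Slfn2 and Gm13822 overlaps Oasl1. On the lowered side Gm13091 (-2.21) overlaps Rere (-1.56), a transcriptional corepressor gene, and Gm45606 overlaps Slc43a2. The labels do not say that strands were kept apart, so reads of such pairs cannot be told apart. Changed lncRNA genes with no overlapping coding gene numbered 50 on the raised side and 52 on the lowered side. Besides Mir155hg they included Ptgs2os2, a neighbour of Ptgs2, with 19.1, 16.3 and 19.9 FPKM in the LPS libraries, against 3.22, 2.51 and 2.41 FPKM in the control libraries. Lowered ones included Ttc39aos1, with 1.75, 2.15 and 1.55 FPKM in the LPS libraries, against 15.97, 13.3 and 10.1 FPKM in the control libraries, and AU022793, with 0.218, 0.802 and 0.628 FPKM in the LPS libraries, against 3.61, 4.11 and 2.89 FPKM in the control libraries. The groups did not overlap for these 3 genes.

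**Figure D4:**
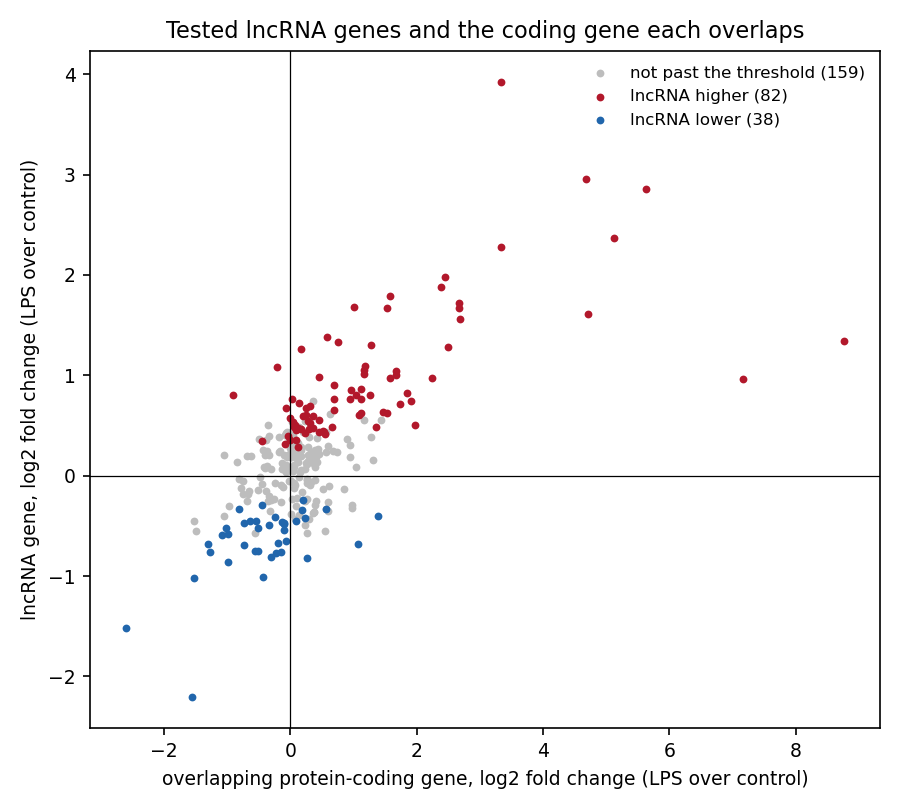
Log2 fold change (LPS over control) of each tested lncRNA gene that overlaps a tested protein-coding gene (vertical) against that of the coding gene (horizontal), coloured by the call of the lncRNA gene. Raised lncRNA genes lie mostly in the upper right, as in the 62 of 136 whose partner was also higher.

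Short and non-coding loci carried few reads, and their FPKM is inflated by their length. Of 434 tested small or structural RNA genes, 53 were higher and 16 lower, and 32 of the 53 overlapped a raised coding gene. Of all tested coding genes 30.8% were higher. On recovered reads, edgeR called 35 higher and 6 lower, and DESeq2 33 and 4. Gm22748, a small nucleolar RNA gene of 136 bases within Odc1, had 108, 106 and 80 reads with LPS, against 8, 9 and 2 without it. Odc1, ornithine decarboxylase of polyamine synthesis, averaged 1281 ± 18.6 FPKM in LPS cells and 103 ± 4.62 FPKM in control cells. Small RNA loci took 4.25 ± 0.384% in LPS cells and 3.36 ± 0.239% in control cells of the summed FPKM (exact permutation p = 0.1, 2-sided, the smallest that 3 against 3 libraries allow). Pseudogenes took 6.71 ± 0.172% in LPS cells and 7.64 ± 0.244% in control cells (exact permutation p = 0.1), and lncRNA genes took 0.836 ± 0.0223% in LPS cells and 0.973 ± 0.0471% in control cells (exact permutation p = 0.1). The LPS and control libraries did not overlap for these 3 shares. The lncRNA share includes genes listed as processed transcripts. Among them is Ifi30, the lowered thiol reductase gene named above, so the share does not measure lncRNA alone. The share without Ifi30 was not computed. In reads rather than FPKM, pseudogenes took 1.72 ± 0.0587% in LPS cells and 1.74 ± 0.0903% in control cells (exact permutation p = 0.8), and small RNA loci took 0.1504 ± 0.0162% in LPS cells and 0.134 ± 0.0156% in control cells (exact permutation p = 0.3), with overlapping groups in both. In reads lncRNA genes took 0.674 ± 0.00962% in LPS cells and 0.748 ± 0.0234% in control cells (exact permutation p = 0.1), without overlap. Of 872 tested pseudogenes 143 were higher and 49 lower, and 71 higher and 164 lower when rescaled to TPM. Polymorphic pseudogenes are a class for genes that are disrupted in the reference strain and intact in other mice. Of 79 such genes only 7 were tested, and all 7 passed the threshold, 6 of them higher. They included the interferon-induced GTPase gene Mx2 and the chemokine gene Cxcl11. Mx2 had 22.97, 25.6 and 22.3 FPKM in the LPS libraries, against 0.596, 0.506 and 0.441 FPKM in the control libraries. Cxcl11 had 13.03, 11.99 and 9.72 FPKM in the LPS libraries, against 0, 0.0439 and 0.01499 FPKM in the control libraries. Both genes passed the filter only through libraries given LPS, which favoured a higher call. The count for this class is therefore not a free comparison with the background.

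Immunoglobulin heavy-chain RNA was lower in LPS cells. All 4 tested joining segments of the heavy-chain locus on chromosome 12 fell, among them Ighj4, with 10, 8 and 17 reads with LPS, against 44, 35 and 31 without it. Its call was lost without LPS replicate 2 or control replicate 1 (limma adjusted p = 0.0511 in both). The 2 tested constant-region genes also fell, among them Ighm, with 60.1, 64.2 and 65.7 FPKM in the LPS libraries, against 81.1, 87.4 and 87.6 FPKM in the control libraries. Segments of the immunoglobulin and T cell receptor loci took 0.0391 ± 0.00302% in LPS cells and 0.08499 ± 0.0144% in control cells of the summed FPKM (exact permutation p = 0.1, 2-sided). The list of B cell markers summed to at most 0.458 FPKM in an LPS library and at most 0.37 FPKM in a control library.

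Raised genes lay next to each other in the genome in several places. Runs of 3 or more neighbouring tested coding genes that were all at least 2-fold higher numbered 22 and held 91 of the 697 such genes. Runs of lowered genes numbered 6 and held 19 of 494. The sets differ in size, and the difference was not tested. Runs were counted among tested genes only, so an untested neighbour could not break a run. The guanylate-binding genes and Fpr2 were tested only through libraries given LPS, which favoured raised runs at such loci. The longest raised run held 7 genes, Ifi209, Ifi207, Ifi204, Mndal, Ifi211, Ifi203 and Ifi202b, at GRCm38 chr1:173630917-173982744. Others held 5 Schlafen genes (chr11:83002158-83215154), 5 guanylate-binding genes (chr3:142493978-142638008), the 4 genes Ifit2, Ifit3, Ifit3b and Ifit1 (chr19:34550694-34650009), and Trim34a, Trim34b, Trim12c and Trim30a (chr7:104244457-104465193). A run of 6 on chromosome 17 (chr17:17402672-17893952) ended in Fpr1 and Fpr2, receptors for formylated bacterial peptides. Fpr2 had 55, 66 and 64 reads with LPS and none without it. Many of these runs are families of close copies, whose reads may be shared. The longest lowered run held 4 genes, Rab3a, Mpv17l2, Pik3r2 and Mast3 (chr8:70754679-70805054). Another held Smad3 and Smad6 with Aagab (chr9:63602660-64022059).

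Promoter sequences were searched for the binding motifs of the factors that act in this response. RefSeq promoters (GRCm38.p6, 250 bases before to 50 after the start site) were found for 7898 of 9787 tested coding genes. Coverage fell below 80% for the genes at least 2-fold higher (553 of 697) and lower (395 of 494) and for DNA repair (55 of 72), so the search over those sets is void. The motifs were GGGA and TTCC with any 2 bases between them (κB), a pair of GAAA with any 2 bases between them (the interferon response element), TTTGGCGC and TTTCCCGC (E2F), TTTGAA (the cell-cycle homology region, CHR) and CCAAT, each on both strands. CCAAT and CHR are short and match often by their length. The interferon element was in 27.5% of 40 promoters of genes with interferon in the description and in 66.7% of 12 Schlafen and guanylate-binding promoters, beside 3.19% of all tested coding genes and 3.49% of all 27025 promoters in the table. An E2F motif was in 31.7% of 41 replication promoters, beside 3.57% of tested coding genes and 1.62% of all promoters. CHR was in 61.1% of 54 kinetochore, spindle and cytokinesis promoters, beside 11.9% of tested coding genes and 18.1% of all promoters, and CCAAT was in 74.1%, beside 39.5% and 37.9%. CHR was also in 50% of the 12 Schlafen and guanylate-binding promoters, a class in which every tested gene was higher. Over the interferon, Schlafen, replication and kinetochore lists in turn, κB was in 12.5, 16.7, 0 and 1.85%, beside 1.51% of tested coding genes. In the same order AP-1 was in 5, 16.7, 2.44 and 1.85%, beside 3.24%. CRE was in 2.5, 0, 4.88 and 9.26%, beside 3.57%. A match is a description of the letters and shows no binding.

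**Figure D5:**
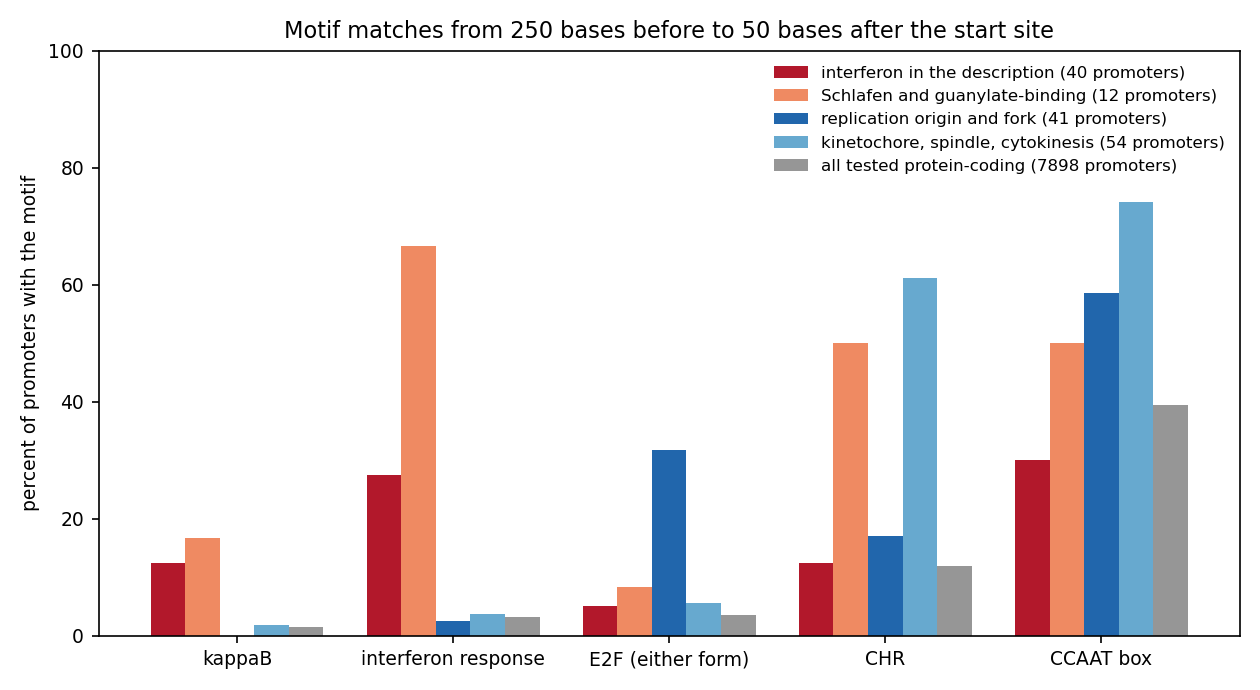
Percent of promoters that hold each of 5 motifs on either strand, for 4 gene lists and for all tested protein-coding genes. The interferon element is most frequent in the Schlafen and guanylate-binding class (66.7%), E2F in the replication list (31.7%) and CHR in the kinetochore list (61.1%).

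The stretches below show 1 match each before the start site of 8 genes with a mean of at least 5 FPKM in LPS or control cells. For κB these are the 2 most raised coding genes with a match. For the other motifs they are the 2 most raised interferon or Schlafen genes, the 2 most lowered replication genes and the 2 most lowered kinetochore genes with one. They were chosen by fold change, so their directions add nothing. Each is read on the gene's strand, 5′ to 3′, with the motif or its reverse complement in capitals. The κB matches of Cxcl2 (chr5:90903778-90903837 (+)) and Cxcl10 (chr5:92349014-92349073 (-)), chemokine genes, come first. The interferon elements are of Ifit1 (chr19:34640779-34640838 (+)), which binds foreign RNA caps, and Ifi207 (chr1:173741816-173741875 (-)). The E2F motifs are of Cdc6 (chr11:98907988-98908045 (+)) and Gins3 (chr8:95633493-95633550 (+)), a subunit of the GINS complex of the replicative helicase. The CHR motifs are of Cenpn (chr8:116921706-116921739 (+)), of the inner kinetochore, and Kif2c (chr4:117178845-117178900 (-)), a microtubule depolymerase.
Cxcl2: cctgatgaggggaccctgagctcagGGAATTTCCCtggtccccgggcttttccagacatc
Cxcl10: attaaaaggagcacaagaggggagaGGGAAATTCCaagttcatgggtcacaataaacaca
Ifit1: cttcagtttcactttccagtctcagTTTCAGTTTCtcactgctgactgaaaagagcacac
Ifi207: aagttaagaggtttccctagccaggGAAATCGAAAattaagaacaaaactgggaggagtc
Cdc6: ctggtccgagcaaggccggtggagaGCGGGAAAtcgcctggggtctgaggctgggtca
Gins3: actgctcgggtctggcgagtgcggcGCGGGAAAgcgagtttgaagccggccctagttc
Cenpn: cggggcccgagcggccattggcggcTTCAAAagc
Kif2c: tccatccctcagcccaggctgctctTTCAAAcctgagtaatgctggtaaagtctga
The genes above with κB or interferon matches had log2 fold changes of 9.61 ± 0.11 for Cxcl2, 5.96 ± 0.07 for Cxcl10, 4.05 ± 0.09 for Ifit1 and 3.93 ± 0.13 for Ifi207. Those with E2F or CHR matches had -1.56 ± 0.05 for Cdc6, -1.25 ± 0.09 for Gins3, -0.97 ± 0.14 for Cenpn and -0.86 ± 0.06 for Kif2c.

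Of the tested genes, 43 were without reads in all 3 control libraries. Another 9 were without reads in all 3 LPS libraries. Such genes passed the filter only through the remaining libraries, the LPS + H-CDs ones included, so these numbers are not compared. The 1 gene without LPS reads that passed the test was the lincRNA Gm10384, which had 0 reads with LPS and 54, 46 and 56 reads without it. A count of 0 in 3 libraries of this depth does not show that a gene is silent. Across the named genes that passed, the highest limma adjusted p was 0.0471.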

How the data were processed

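RNA of 3 LPS and 3 control libraries (and 3 with LPS and H-CDs) was captured on poly-T beads and read after random priming, per the labels' protocols. The authors deposited FPKM per gene, per the file headers. The build was GRCm38 (mm10) per the submitters' processing notes; for aligner, counter and strand setting, the sources used here give nothing. The deposited signal of the comparison table served only to check the reads. FPKM times gene length, divided by the worth of 1 read in each library, gave whole reads for 100% of values (tolerance 0.01). The library totals behind the deposited FPKM were 0.928 to 0.935 of the summed reads in LPS and 1.13 to 1.15 in control libraries. Genes with at least 1 FPKM in 3 libraries were fitted with limma 3.58.1 (R 4.3.3) on log2(FPKM + 1), all 9 libraries, intensity trend, 2-sided; 3 against 3 libraries cannot give an exact permutation p below 0.1. Genes were named by rank of fold change, gain or loss of FPKM, biotype, or smallest adjusted p in a class, and some further genes after their values were seen. The members, gene lists and description classes were chosen with earlier results of these data known. edgeR 4.0.16 and DESeq2 1.42.0 were run on the recovered reads as alternatives. Some genes are not reported here. The limma fit was checked on simulated data in which few genes changed and plain read totals were used. That check does not cover the adjusted library totals or a response as broad as this one.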

Additional observations from a re-analysis of the deposited data

How the results depend on the processing

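Scaling changed the counts most. On the TPM scale the count of higher genes was 1676 and of lower genes 5657, 1499 of these by at least 2-fold, and scaled to total reads the numbers were 1904, 5191 and 986. Genes at least 2-fold lower numbered 885 with a pseudocount of 0.1, 936 with DESeq2 and 982 with edgeR on recovered reads, against 539. Genes at least 2-fold higher stayed within 1.5 times of 844 in every alternative tried. Leaving out single LPS or control libraries gave 2934 to 3180 genes higher, 2802 to 2952 lower, 817 to 875 at least 2-fold higher and 524 to 559 at least 2-fold lower. Single libraries left out moved the LPS minus control difference in share of summed FPKM between -0.162 and -0.116 percentage points for lncRNA genes, -1.06 and -0.814 for pseudogenes and 0.721 and 1.1 for small RNA genes, with no change of sign. Whether the replicate numbers pair the libraries was not settled. Same-numbered control and LPS libraries had deviations that correlated at 0.198, 0.0617 and 0.0869. Differently numbered ones correlated at -0.166 to 0.069. With the number as a replicate block, 3255 genes were higher and 3021 lower, 845 and 536 by at least 2-fold, and the calls of Orc3, Pkm and Ptma were lost. Of 198 named genes that passed, 192 kept their direction and call in every alternative tried. The exceptions were Fth1, Ighj4, Orc1, Orc3, Pkm and Ptma, and Orc3 turned to a log2 fold change of -0.034 rescaled to TPM. The cause was not tested. Leaving out LPS + H-CDs replicate 1, chosen after seeing the data, gave 3521 genes higher and 3267 lower. Short RNA loci rest on few reads, which limits their precision.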
